A study of Zea mays with 8 samples.

Results

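Pyruvate orthophosphate dikinase is represented here by 2 maize (Zea mays) genes, pdk1 (Zm00001d038163) and pdk2 (Zm00001d010321), out of 37965 genes in the deposited count table. They were chosen by gene ID, and the 2 were read together because they encode the same enzyme activity. RNA-seq counts came from endosperm of the inbred line A188 at 19 days after pollination, enriched for its EAS zone, which lies next to the scutellum of the embryo. The groups were a knockout of both KIL1 and KIL2 (4 libraries) and wild type (4 libraries), with no other allele or treatment in the labels. KIL1 and KIL2 belong to the NAC family of transcription factors, and the study examined what their joint loss does to this tissue. Whether libraries of one genotype derive from different plants or ears is not in the labels, so all p-values rest on a spread between samples that may be technical.

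Pyruvate orthophosphate dikinase interconverts pyruvate and phosphoenolpyruvate, with ATP and inorganic phosphate on the pyruvate side and AMP and pyrophosphate on the other. In C4 leaves the enzyme sits in mesophyll chloroplasts and regenerates phosphoenolpyruvate for carbon fixation. In filling maize endosperm it is an abundant, largely cytosolic protein, and has been linked to the balance between starch and storage protein through phosphoenolpyruvate, pyrophosphate and the carbon skeletons of amino acids. In maize, pdk1 carries an upstream promoter that gives the chloroplast form used in the leaf and a downstream promoter inside its first intron that gives a cytosolic form, whereas pdk2 is known as a cytosolic gene. Counts per gene, as used here, do not tell the products of these promoters apart.

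In the deposited A188 annotation, pdk1 lies on chromosome 6 from 157596304 to 157607212 and pdk2 on chromosome 8 from 108174528 to 108185325, both on the plus strand. The spans are close, 10909 bases for pdk1 and 10798 bases for pdk2. Merging overlapping exons leaves 16 exon blocks in pdk1 and 18 in pdk2, and 5 blocks of pdk1 have counterparts of equal length in pdk2, in the same order. Each gene begins with a block set far from the rest, 426 bases followed by a gap of 4712 bases in pdk1 and 244 bases followed by a gap of 4948 bases in pdk2. This first block appears in 2 of the 615 exon entries of pdk1 and in 1 of the 558 exon entries of pdk2. Summed exon length is 4851 bases for pdk1 and 3740 bases for pdk2, and the longest block, in which overlapping exons merge, is 1704 bases in pdk1 and 396 bases in pdk2. No other gene of the annotation overlaps either span.

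**Figure D1:**
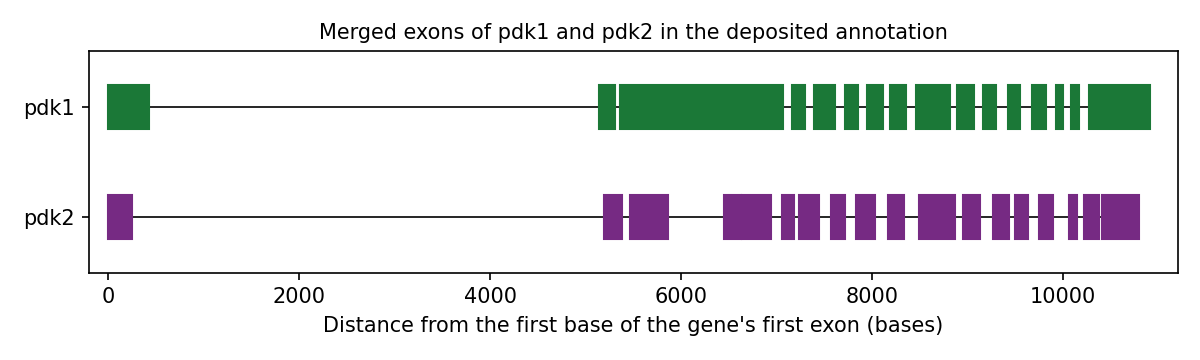
Exon blocks of pdk1 (top) and pdk2 (bottom), drawn to scale as boxes against the distance in bases from the start of each gene, with lines for introns. Both genes show a lone first block followed by a gap of 4712 bases (pdk1) or 4948 bases (pdk2), and pdk1 has a single block of 1704 bases near its middle.

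The deposited IDs carry no gene names, and 0 of the 37965 IDs matched the reference gene table (B73). That table does list a gene with the synonym cyppdkZm1 on chromosome 6 and a gene with the synonym CYPPDKZM2 on chromosome 8, the chromosomes on which the 2 IDs lie. The short symbol pdk1 is shared by 3 genes of that table, so symbols alone do not identify the enzyme. KIL1, KIL2, tissue markers and the planned lists of starch, zein, regulator and pyruvate metabolism genes (52 symbols) could be tied to no ID and were not analysed here. The genotype labels were therefore not checked against the targeted genes, nor the tissue against its markers.

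Library totals were 47143888 to 65625013 counts in the knockout, against 58330218 to 80577963 counts in wild type. Of 22014 genes tested, 4086 (18.6%) passed an adjusted p of 0.05 (edgeR quasi-likelihood test, Benjamini-Hochberg adjustment over all tested genes), with 1873 (8.51%) higher and 2213 (10.1%) lower in the knockout. This split moved with the scaling, to 1032 higher and 4743 lower with library totals and to 2229 higher and 2000 lower with upper quartile factors. Knockout replicate 1 stood apart on the second principal component of log2 CPM, which held 16.7% of the variance (score 43.7, against -20.1 to -3.63 for the other knockout libraries and -22.3 to 13.7 for wild type). Without that library the log2 fold change was 0.56 for pdk2 (edgeR adjusted p = 0.00372) and -0.17 for pdk1 (edgeR adjusted p = 0.153), against 0.52 and -0.21 with it.

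Both genes were among the most abundant of this endosperm by mean CPM, ranking 15th (pdk1) and 26th (pdk2). CPM is the read count scaled to a common library size with TMM factors. It is not corrected for gene length, and neither are the ranks given here. The 2 genes stood in opposite directions in the knockout. The pdk2 transcript rose 1.44-fold, while the pdk1 transcript stood 1.15-fold lower, a difference that missed the threshold. The ratio of pdk2 to pdk1 was 1.67-fold higher in the knockout. In bulk tissue, a change in the number of cells of a type and a change in RNA per cell cannot be told apart. This holds for a rise, a fall or a change in the ratio.

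The pdk2 gene had 3263, 3900, 3621 and 3337 CPM in knockout replicates 1 to 4. In wild type replicates 1 to 4 it had 2536, 2199, 2284 and 2801 CPM. Every knockout library was above every wild type library, with the closest pair at 3263 CPM (knockout replicate 1) and 2801 CPM (wild type replicate 4). Means were 3530 ± 291 CPM in knockout libraries and 2455 ± 271 CPM in wild type (SD, n = 4 each). The change was 0.52 on the log2 scale (SE 0.09, edgeR adjusted p = 0.0019), in the direction in which 8.51% of tested genes passed. Of the genes that rose, 37.9% rose by a larger factor than pdk2.

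The pdk1 gene had 4045, 4635, 4028 and 4758 CPM in knockout replicates 1 to 4. In wild type replicates 1 to 4 it had 5112, 5081, 4867 and 5096 CPM. The knockout libraries formed a low pair (replicates 1 and 3) and a higher pair (replicates 2 and 4), and the higher pair lay just under the lowest wild type library. Means were 4367 ± 384 CPM in knockout libraries and 5039 ± 115 CPM in wild type (SD, n = 4 each). The difference was -0.21 on the log2 scale (SE 0.07, edgeR adjusted p = 0.0553, unadjusted p = 0.0107), which did not pass. It did pass with DESeq2 (adjusted p = 0.0122), with limma-voom (adjusted p = 0.0449), with unadjusted library totals for scaling (edgeR adjusted p = 0.00818) and without knockout replicate 4 (edgeR adjusted p = 0.0351).

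**Figure D2:**
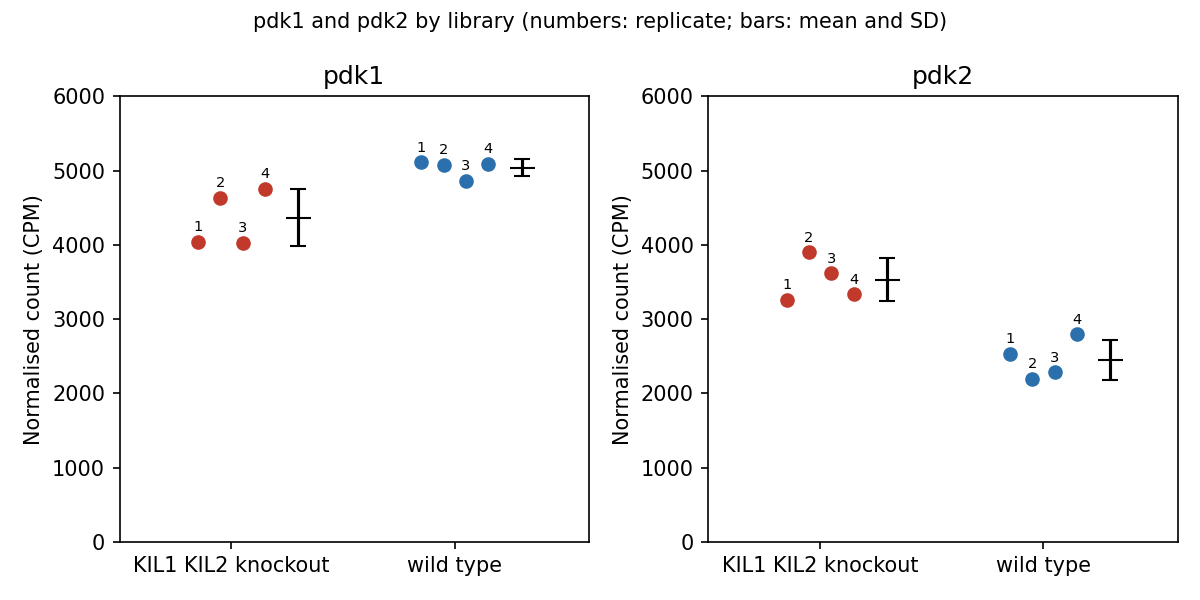
Normalised count (CPM, linear axis from 0) of pdk1 (left panel) and pdk2 (right panel) in each library, with the knockout left of wild type, replicate numbers beside the points, and black marks for the mean and SD of 4 libraries. For pdk2 the knockout points (3263 to 3900 CPM) lie above the wild type points (2199 to 2801 CPM), and for pdk1 the knockout points (4028 to 4758 CPM) lie below the wild type points (4867 to 5112 CPM).

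For both genes, knockout and wild type values were without overlap, which held for 23.2% of all tested genes. Counting error was small beside the spread of the libraries, since each gene had at least 146776 counts in every library. Among knockout libraries the coefficient of variation was 8.8% for pdk1 and 8.23% for pdk2. Among wild type libraries it was 2.29% for pdk1 and 11% for pdk2, so the pdk1 level varied little between wild type libraries.

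Among the 100 most abundant genes, 52 rose and 4 fell in the knockout by the same test, against 8.51% and 10.1% of all tested genes. Of the 100, 20 had a negative log2 fold change. These counts are for TMM factors and were not examined under other scalings, with which the split over all genes moved. The pdk2 gene was one of the 52, and pdk1 was among the 20 below 0. In single libraries pdk1 ranked 18th to 23rd by CPM in the knockout and 9th to 11th in wild type. The ranks of pdk2 were 24th to 26th in the knockout and 25th to 28th in wild type.

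**Figure D3:**
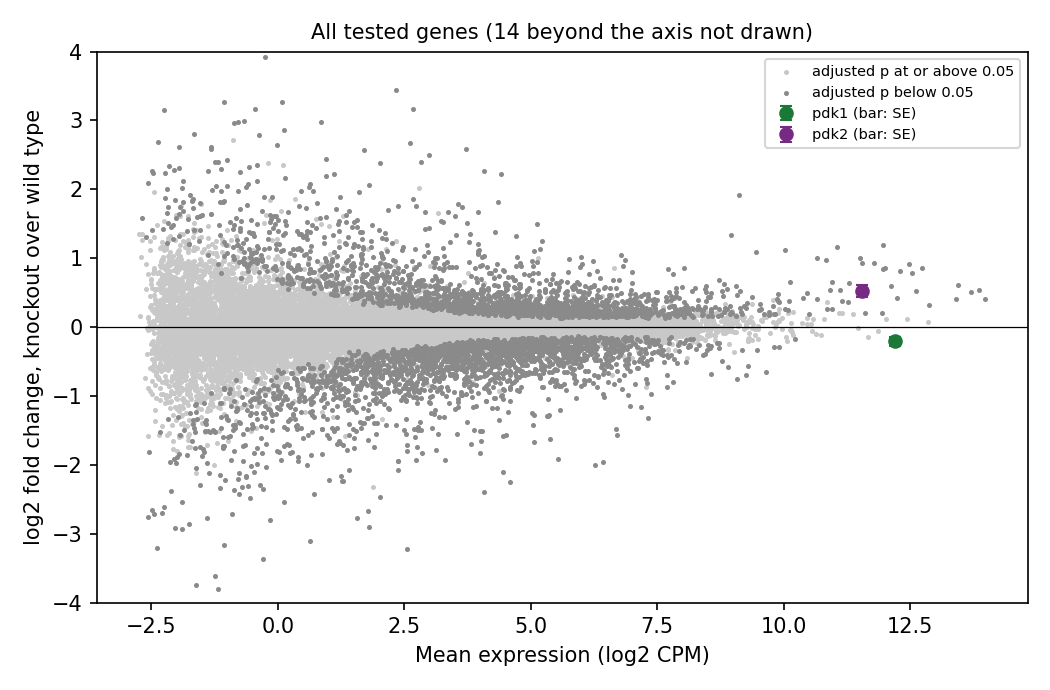
The log2 fold change of knockout over wild type (vertical axis) against mean expression in log2 CPM (horizontal axis) for all tested genes, in light grey where the adjusted p was at or above 0.05 and in darker grey below it; 14 genes beyond a log2 fold change of 4 are not drawn. Both members sit at the abundant end, pdk2 at 0.52 and pdk1 at -0.21, with bars for the SE.

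The ratio of the 2 genes within a library does not depend on library size or scaling. The pdk2 gene had 0.807, 0.841, 0.899 and 0.701 counts per count of pdk1 in knockout replicates 1 to 4, against 0.496, 0.433, 0.469 and 0.55 in wild type replicates 1 to 4. The lowest knockout ratio (0.701, replicate 4) was above the highest wild type ratio (0.55, replicate 4). The mean log2 ratio was -0.31 ± 0.15 in the knockout and -1.04 ± 0.14 in wild type (SD, n = 4 each), a difference of 0.74 (SE 0.10, p = 0.0286 in a two-sided exact permutation test, which with 4 against 4 libraries can go no lower). The pair therefore changed unequally between the genotypes, whichever scaling is used. As a share of the counts of both genes, pdk2 made up 44.7% ± 2.58 in the knockout and 32.7% ± 2.21 in wild type (SD, n = 4 each).

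As a share of all counts, the 2 genes together moved little. They took 0.705%, 0.831%, 0.71% and 0.789% of all counts in knockout replicates 1 to 4, against 0.789%, 0.776%, 0.746% and 0.808% in wild type replicates 1 to 4. These ranges overlapped, and the means of 0.759% ± 0.062 in the knockout and 0.78% ± 0.026 in wild type (SD, n = 4 each) differed by less than the SD of the knockout libraries. On the TMM scale the sum was 7897 ± 534 CPM in knockout libraries and 7494 ± 341 CPM in wild type (SD, n = 4 each), also overlapping and with the order of the means turned. With the CPM of each gene divided by its summed exon length, the sum was 1844 ± 123 CPM per kilobase in knockout libraries. In wild type it was 1695 ± 86.3 CPM per kilobase (SD, n = 4 each), with overlapping ranges. No sum of both genes was tested.

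**Figure D4:**
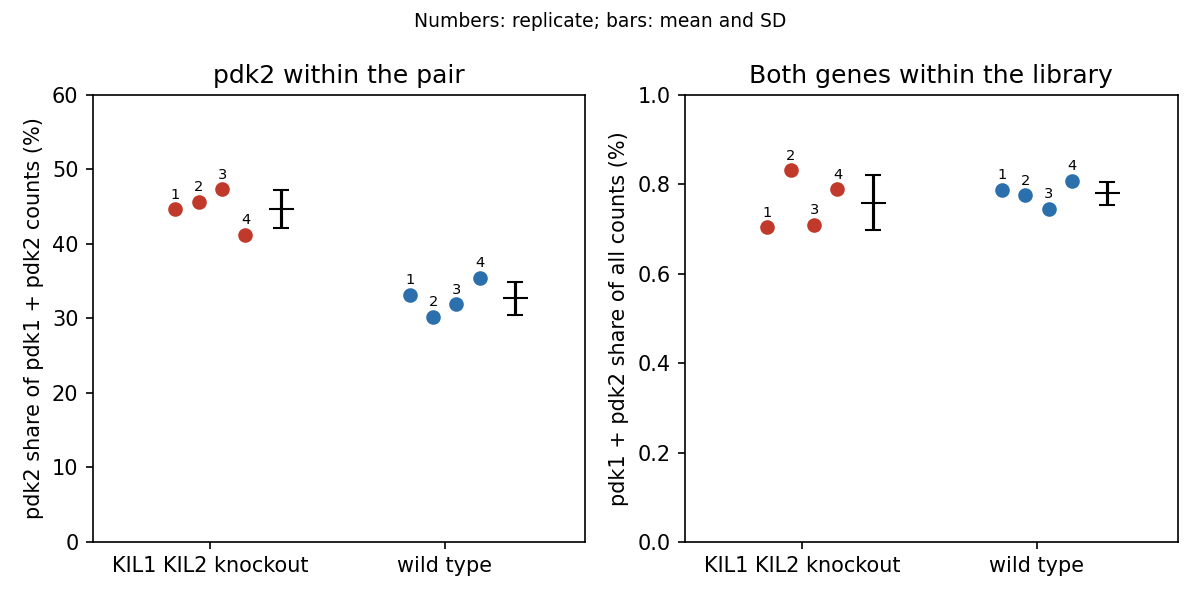
Left panel, the percentage of pdk1 plus pdk2 counts that came from pdk2; right panel, the percentage of all counts of a library that came from both genes; points are libraries, the knockout is left of wild type, and black marks give the mean and SD of 4 libraries. The pdk2 percentage separates the genotypes (41.2% to 47.3% in the knockout, 30.2% to 35.5% in wild type), while the percentage of both genes overlaps (0.705% to 0.831% in the knockout, 0.746% to 0.808% in wild type).

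To compare the level of one gene with that of the other, CPM were divided by summed exon length. On this scale pdk1 stood at 900.2 ± 79.2 CPM per kilobase in the knockout and 1039 ± 23.8 CPM per kilobase in wild type (SD, n = 4 each). The pdk2 level was 944 ± 77.7 CPM per kilobase in the knockout and 656 ± 72.5 CPM per kilobase in wild type (SD, n = 4 each). In wild type pdk1 was the higher of the 2 in all 4 libraries, with pdk2 at 0.561 to 0.713 of the pdk1 level per kilobase. In the knockout the levels did not differ beyond their spread, with pdk2 at 0.91 to 1.17 of the pdk1 level per kilobase and above it in 3 of 4 libraries. That order in the knockout depended on the length used. With lengths restricted to bases listed in at least 0.1 of the number of exon entries that cover the gene's most covered base (3509 bases for pdk1 and 3010 bases for pdk2), pdk2 stood at 0.818 to 1.05 of pdk1 in the knockout and at 0.505 to 0.641 in wild type. The ratio per kilobase differed between the genotypes by the same factor under any length. Reads aligning to stretches shared by both genes were left out of the counts. The countable length of each gene may therefore be shorter than its exon length, by an unknown amount. For this reason the order of the 2 levels is uncertain in wild type as well.

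The genes around each locus were examined as the 5 tested genes on either side. Around pdk1, 2 of 10 neighbours rose and 0 fell, and their log2 fold changes ranged from -0.20 to 0.99. The nearest tested gene after pdk1, 21405 bases away, rose (log2 fold change 0.60, edgeR adjusted p = 0.0131), with 7.24 CPM in knockout and 4.77 CPM in wild type libraries. Around pdk2, 0 of 10 neighbours rose and 3 fell, and their log2 fold changes ranged from -0.89 to 0.36. The nearest tested gene before pdk2, 25946 bases away, fell (log2 fold change -0.89, edgeR adjusted p = 0.0253), with 0.307 CPM in knockout and 0.571 CPM in wild type libraries. The neighbours were far less abundant than the members, at 0.524 to 40.4 CPM in wild type around pdk1 and 0.571 to 179 CPM in wild type around pdk2. Over all tested genes 8.51% rose and 10.1% fell, and 10 neighbours are too few to set either locus apart from these shares.

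Likeness of pattern was measured as the SD, over the 8 libraries, of the log2 ratio of a gene's CPM to that of the member, over the 6160 other genes whose mean log2 CPM was 5 or more. A small SD means that the gene kept a near-constant ratio to the member. The gene most like pdk2 was Zm00001d036296 (chromosome 6, 88351464 to 88361968, 12 exon blocks), with an SD of 0.065 against a median of 0.312 over all candidates. It measured 108 ± 5.5 CPM in knockout libraries and 77.8 ± 5.67 CPM in wild type (SD, n = 4 each). Of the 10 genes most like pdk2, with an SD of up to 0.089, 10 rose and 0 fell in the knockout, where 8.51% of all tested genes rose. These calls follow from having been picked for the pattern of pdk2, so they add no support to its rise.

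The gene most like pdk1 was Zm00001d038927 (chromosome 6, 175156798 to 175162398, 10 exon blocks), with an SD of 0.04 against a median of 0.17 over all candidates. It measured 42.2 ± 3.89 CPM in knockout libraries and 48 ± 1.41 CPM in wild type (SD, n = 4 each). Its log2 fold change of -0.19 did not pass either (edgeR adjusted p = 0.0662). Of the 10 genes most like pdk1, 7 fell and 0 rose, where 10.1% of all tested genes fell. These calls follow from having been picked for the pattern of pdk1, so they add no support to a fall of pdk1. Between pdk1 and pdk2 themselves the SD was 0.417, with 2.95% of the candidates less like pdk1 than pdk2 was, and 12.9% less like pdk2 than pdk1 was. The files do not pair these IDs with names.

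**Figure D5:**
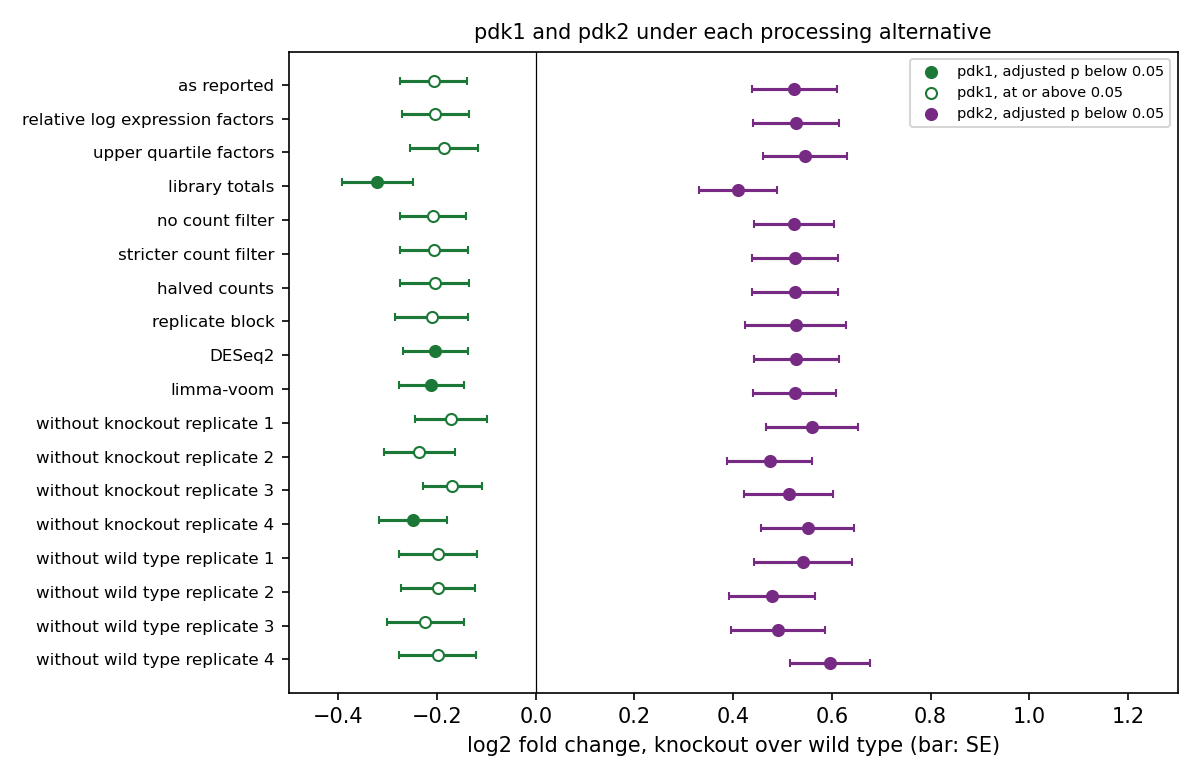
The log2 fold change of knockout over wild type for pdk1 (green) and pdk2 (purple) as reported and under each of 17 alternatives, with bars for the SE and filled points where the adjusted p was below 0.05. All pdk2 values lie right of 0 (0.41 to 0.60) with filled points, and all pdk1 values lie left of 0 (-0.32 to -0.17), 4 of them filled.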

How the data were processed

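RNA-seq was made from 4 KIL1 KIL2 knockout and 4 wild type samples of EAS-enriched endosperm. Raw counts of reads per gene were deposited by the authors, made with featureCounts 2.0.1 and an A188 annotation, per the file headers, with no option set for strand, pairs, multi-mapping or overlap. Reads aligning to several places, such as stretches shared by pdk1 and pdk2, were therefore left out, and the 2 reads of a pair counted separately. Trimmomatic 0.39 and HISAT2 were used, per the submitters' processing notes.

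From these counts, genes were kept by filterByExpr (22014, holding 99.97% of counts), scaled by TMM and tested with edgeR 4.0.16 in R 4.3.3 (glmQLFit, glmQLFTest, genotype only, Benjamini-Hochberg adjustment, threshold 0.05). SEs came from the F statistic. The log2 ratio of pdk2 to pdk1 counts used a pseudocount of 0.5 and an exact permutation test over 70 relabellings (1 comparison). The procedure was tested on simulated data. Named genes were the 2 members and, for each, the 1 gene of most alike pattern by SD of the log2 ratio. DESeq2 1.42.0, limma 3.58.1 (voom), other scalings and filters, halved counts, a replicate block and leaving out each library were alternatives. The members, lists and tests were chosen with earlier results of these data known. Names came from the stated IDs and synonyms in the B73 RefSeq table. Sequences were not used here.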

Additional observations from a re-analysis of the deposited data

Results flagged for a closer look

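Of 10 sets of 4 values examined for a library far from the rest of its group, 2 had one, where chance gives about 1 in 20. Wild type replicate 3 had 4867 CPM of pdk1, where the other wild type libraries had 5081 to 5112 CPM. Without that library the log2 fold change of pdk1 was -0.22 (edgeR adjusted p = 0.0879), against -0.21 with it. The total of wild type replicate 2 was 80577963 counts, and the totals of the remaining wild type libraries were 58330218 to 61613873 counts. Without it the log2 fold change of pdk2 was 0.48 (edgeR adjusted p = 0.00646) and that of pdk1 was -0.20 (edgeR adjusted p = 0.119).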

How the results depend on the processing

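The pdk2 rise kept its direction and its call in all 17 alternatives (log2 fold change 0.41 to 0.60, adjusted p 3.16e-08 to 0.0136; 0.47 to 0.60 without each library). The pdk1 value stayed below 0 in all 17 and passed in 4: -0.32 with library totals (adjusted p = 0.00818), -0.20 with DESeq2 (adjusted p = 0.0122), -0.21 with limma-voom (adjusted p = 0.0449) and -0.25 without knockout replicate 4 (adjusted p = 0.0351). Without each library it lay between -0.25 and -0.17 (adjusted p 0.0351 to 0.153). Library totals moved the median change over all genes from -0.0033 to -0.12 (log2); relative to the median, pdk1 stood at -0.20 and pdk2 at 0.53 under each of the 4 scalings. The count of changed genes was 2783 to 5775. In a fit with the replicate block, the adjusted p was 0.103 for pdk1 and 0.0136 for pdk2, and 3000 genes changed. Same-numbered libraries did not deviate together (correlations 0.101, 0.103, -0.05 and -0.13), so the numbers are not taken to pair the samples.

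The difference in the log2 ratio of pdk2 to pdk1 was 0.68 to 0.81 without each library, each with an exact permutation p of 0.0286. That p is the smallest the remaining libraries can give, and it follows from the groups not overlapping in this ratio. With the replicate block the difference was 0.74 (exact sign-flip permutation p = 0.125, the smallest 4 pairs can give). The share of all counts held by both genes differed by -0.021 percentage points (-0.045 to -0.0027 without each library). Counts outside the 100 most abundant genes form a smaller pool that contains neither gene. Per 100 counts of that pool, the counts of both genes differed by 0.047, knockout minus wild type. This value is not a share, and its size cannot be compared with that of the first. Other lengths, chosen after seeing the data, moved the log2 ratio of pdk2 to pdk1 per kilobase in the knockout from 0.069 to -0.085 (common exon bases) and -0.31 (equal lengths), and in wild type from -0.67 to -0.82 and -1.04; without each library it was 0.018 to 0.14 in the knockout and -0.73 to -0.61 in wild type. Depth did not limit either gene.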
